A study of Mus musculus with 9 samples.

Results

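Lipid-associated macrophages are phagocytes described in fat, atherosclerotic plaque and injured liver, and 9 genes that are widely used to recognise them were followed here through every cell class of the mouse liver after induction of YAP. The genes were Trem2, Gpnmb, Cd9, Cd63, Spp1, Lgals3, Apoe, Lpl and Fabp5. They were taken as a named list, with earlier results of these data known, and all 9 were found among the 27998 genes of the count table. The cells came from C57BL/6 livers that were minced and digested with dispase and collagenase in a preparation meant for cells other than hepatocytes, and droplet-based 3′ libraries were made from 1 mouse each. Of the 9 libraries, 2 were from ROSA26-rtTA-IRES-EGFP WT mice given doxycycline food for 7 days (WT), 4 were from tetYAP mice given doxycycline for 3 days (YAP3d, acute induction) and 3 were from tetYAP mice given doxycycline for 7 days (YAP7d, tonic induction). All groups carry the doxycycline-dependent transactivator, which Alb-CRE switches on in cells of the hepatocyte lineage, and only the YAP3d and YAP7d mice carry the inducible S127A form of YAP. The phagocytes were therefore not the cells meant to carry induced YAP, and WT mice with 3 days of doxycycline were not among the samples.

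TREM2 is a lipid-sensing surface receptor that signals through the adaptor TYROBP, and it is the receptor by which the lipid-associated state was first recognised. The state is a response to lipid and dying cells: phagocytes take up the material, break it down in lysosomes, and raise surface, secreted and lipid-carrying products. In the healthy liver the resident macrophage is the Kupffer cell, which can be replaced by monocyte-derived cells after damage. Most of these genes are not restricted to phagocytes, so each level below is given per cell class.

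Trem2 and Lgals3, whose YAP7d values all lay above the WT values in both phagocyte classes, are shown with the sequence just before their start, from RefSeq on GRCm38.p6, the assembly that mm10 names. Each window is the 250 bases upstream of the gene's first base on the plus strand, chr17:48346151-48346400 for Trem2 and chr14:47373610-47373859 for Lgals3, and neither overlaps another RefSeq gene. Capitals mark any match, on either strand, to 4 motifs: CACGTG (bound by MIT/TFE factors of the lysosomal programme), GGAATG (TEAD, the DNA-binding partner of YAP), TGANTCA (AP-1) and GAGGAA (PU.1 and other ETS factors). TGANTCA is looser than the AP-1 site itself, whose middle letter is C or G. GAGGAA and GGAATG can share letters where they abut.
Trem2: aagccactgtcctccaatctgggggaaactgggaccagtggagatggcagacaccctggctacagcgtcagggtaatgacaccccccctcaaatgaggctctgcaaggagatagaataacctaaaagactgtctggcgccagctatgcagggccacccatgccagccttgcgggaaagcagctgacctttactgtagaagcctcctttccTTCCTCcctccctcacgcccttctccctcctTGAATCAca
Lgals3: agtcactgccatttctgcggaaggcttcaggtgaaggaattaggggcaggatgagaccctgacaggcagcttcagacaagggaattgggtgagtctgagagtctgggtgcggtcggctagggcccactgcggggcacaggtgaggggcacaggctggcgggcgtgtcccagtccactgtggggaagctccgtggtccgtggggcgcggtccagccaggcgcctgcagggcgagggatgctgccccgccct
The Trem2 window held 1 TGANTCA match, which begins 9 bases before the start, and 1 GAGGAA match, which begins 40 bases before it. The TGANTCA match reads TGAATCA, so it is not the stricter AP-1 site. The Lgals3 window held none of the 4. Across all 32851 such windows, 23.3% held GAGGAA, 12.6% held GGAATG, 6.75% held TGANTCA and 6.02% held CACGTG. These matches describe the letters and were not tested for binding.

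Cells were sorted into classes by clustering and fixed markers, and a class is called X-like because it rests on those markers alone. Of 8527 cells with at least 200 genes, 1031 were macrophage-like and 1043 were monocyte-like, and all 12 macrophage markers had counts in every macrophage-like library. Macrophage-like cells numbered 31 and 67 in the WT libraries, 12 to 82 in YAP3d and 147 to 404 in YAP7d. Monocyte-like cells numbered 10 and 60 in WT, 6 to 93 in YAP3d and 35 to 645 in YAP7d, so YAP3d replicates 1 and 3, with 6 and 7 cells, gave no monocyte-like level. Depth was greater in YAP7d: the median macrophage-like cell held 1777 and 7178 UMIs (unique molecules counted) in the WT libraries and 9132 to 22664 in YAP7d. Barcodes were shared by 2 or more libraries for 93 cells, and 65 cells scored as doublets (0.762%) were kept. Counts of the pseudogene Gm10709 divided the libraries, at 347 to 611 CPM over all cells in YAP3d replicates 1 and 2 and all YAP7d libraries and 3.65 to 11.2 CPM in both WT libraries and YAP3d replicates 3 and 4. WT and YAP7d therefore lay wholly on opposite sides of that split, and the split and that comparison can be told apart only through the YAP3d libraries. Yap1 itself was seen in hepatocyte-like cells as 0 and 1 counts in WT, 1 to 6 in YAP3d and 11 to 19 in YAP7d, over 1 to 28 such cells a library. Those counts correspond to 77.1 and 0 CPM in WT, 19.7 to 80.5 CPM in YAP3d and 73.3 to 147 CPM in YAP7d, which overlap, and over all cells Yap1 was 15.7 and 11.0 CPM in WT and 1.52 to 5.53 CPM in YAP7d, so the labels could not be checked by this gene.

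Across the liver Trem2, Lgals3, Lpl and Apoe stood highest in phagocytes in most libraries, and the other genes did not. Levels are counts per 1000000 UMIs of a class in a library (CPM), as mean ± SD over libraries with at least 10 cells of that class, and since classes were made from the same cells their order is a description with no test. The libraries behind these means differ between classes, so orders were read within a library. Trem2 stood at 138 ± 101 CPM in macrophage-like cells (n = 9) and 142 ± 71.3 CPM in monocyte-like cells (n = 7), and in the 7 libraries with both it was higher in macrophage-like cells in 5. The next class, neutrophil-like, stood at 20.8 ± 27.0 CPM (n = 4). Lpl, the secreted lipase that frees fatty acids from lipoproteins, stood at 561 ± 154 CPM in macrophage-like cells (n = 9), the highest class in 8 of 9 libraries. Lgals3, a sugar-binding lectin made by phagocytes, was at 2404 ± 363 CPM in monocyte-like cells (n = 7), the highest class in 6 of those 7 libraries, at 1353 ± 641 CPM in conventional dendritic-like cells (n = 9) and at 999.6 ± 333 CPM in macrophage-like cells (n = 9). Apoe, the lipoprotein component that carries cholesterol out of macrophages, stood at 12224 ± 7137 CPM in macrophage-like cells (n = 9), the highest class in 9 of 9 libraries. In the 2 libraries with at least 10 cholangiocyte-like cells it was 24266 and 19766 CPM in macrophage-like against 16803 and 14727 CPM in cholangiocyte-like cells, and endothelial-like cells held 5248 ± 1506 CPM (n = 6).

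For Spp1, Fabp5, Cd9 and Cd63 other classes stood above the phagocytes. Gpnmb had its highest mean in macrophage-like cells (7.98 ± 15.6 CPM, n = 9), which led in 2 libraries. T cell-like cells came next (6.20 ± 2.73 CPM, n = 9). Spp1, which encodes the secreted adhesive protein osteopontin, stood at 19940.0 ± 291 CPM (n = 2) in cholangiocyte-like cells, against 35.0 ± 23.5 CPM (n = 7) in monocyte-like and 14.2 ± 14.4 CPM (n = 9) in macrophage-like cells. Fabp5, a carrier of fatty acids inside the cell, was higher in endothelial-like cells (648 ± 140.5 CPM, n = 6) than in macrophage-like cells (40.1 ± 19.3 CPM, n = 9) in each of the 6 libraries with both. The tetraspanins Cd9 and Cd63, membrane organisers of the cell surface and of late endosomes, had no single leading class. In cholangiocyte-like cells they stood at 729 ± 43.8 and 573 ± 122 CPM (n = 2), and in the same 2 libraries stellate or mesenchymal-like cells held more Cd63, 1258 and 572 against 659 and 486 CPM, while neutrophil-like cells held more Cd9 in 1 of the 2. Basophil or mast-like cells, at most 6 in any library, stood at 535 to 2278 CPM of Cd9 and 535 to 3038 CPM of Cd63 where present. The macrophage-like levels were 62.2 ± 39.8 CPM of Cd9 and 25 ± 17.0 CPM of Cd63 (n = 9).

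**Figure D1:**
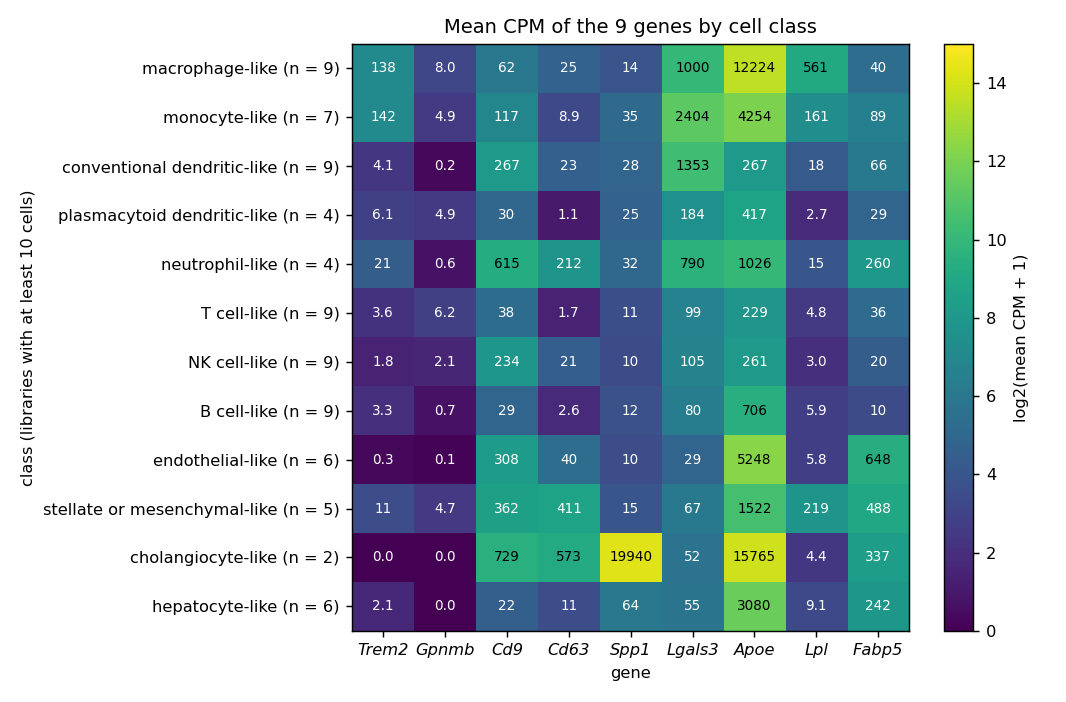
Mean CPM of the 9 genes (columns) in 12 cell classes (rows), with colour on a log2(CPM + 1) scale and n the number of libraries with at least 10 cells. Trem2 and Lpl stand highest in phagocyte rows, Spp1 in the cholangiocyte-like row (19940.0 CPM) and Fabp5 in the endothelial-like row (648 CPM).

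The macrophage-like levels were set beside those of the B cell-like and the T cell-like cells of each library. Trem2 ran from 0 to 17.5 CPM in T cell-like and 0 to 13.3 CPM in B cell-like cells, and macrophage-like cells stood above each in 8 of 9 libraries. Lgals3, Lpl and Apoe were above both in 9 of 9 and Cd63 in 8 of 9. Cd9 was above T cell-like cells in 7 of 9 and above B cell-like cells in 6 of 9, Spp1 above each in 6 of 9, and Fabp5 above T cell-like cells in 3 and B cell-like cells in 9 of 9. In WT, macrophage-like Cd9 was 0 and 40.4 CPM against 31.0 and 43.4 CPM in T cell-like and 0 and 82.1 CPM in B cell-like cells. Gpnmb, a lysosomal glycoprotein, was above T cell-like cells in 3 of 9 libraries, and B cell-like cells had 0 counts of it in 8 of 9, which allows up to 1.14 to 27.6 CPM, so in most libraries a low level shared by all classes was not detectable. Among macrophage-like cells Gpnmb was at 0 in both WT libraries and in YAP3d replicates 1, 2 and 3, stood at 48.2 CPM in YAP3d replicate 4 (27 counts), and at 6.53 to 9.45 CPM in YAP7d, while T cell-like cells ranged from 2.52 to 10.5 CPM. A count of 0 allows up to 32.7 CPM in WT replicate 1, 5.77 CPM in WT replicate 2, and 51.7 CPM in YAP3d replicate 1, taking 3 counts as the limit, and such limits and intervals cover counting error only.

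The class that supplied each gene's counts differed between groups, as did the make-up of the libraries. Macrophage-like and monocyte-like cells together held 8.71% and 12.7% of the UMIs in WT, 7.96% to 49.1% in YAP3d and 54.7% to 69.4% in YAP7d. Endothelial-like cells numbered 276 and 500 in WT and 5 to 7 in YAP7d. For Apoe the share of counts from endothelial-like cells was 68.2% and 43.5% in WT and 0.0837% to 0.902% in YAP7d, and the share from both phagocyte classes was 27.4% and 36.0% in WT and 86.8% to 93.9% in YAP7d.

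Over all cells, Apoe stood at 4323 ± 1537 CPM in WT (n = 2) and 4227 ± 2170.4 CPM in YAP7d (n = 3), although the cells that carried it were different. Fabp5 over all cells was 329 ± 8.12 CPM in WT and 74.5 ± 18.0 CPM in YAP7d, and endothelial-like cells gave 93.5% and 83.6% of its counts in WT. Trem2 over all cells averaged 7.73 ± 4.29 CPM in WT, 27.8 ± 43.7 in YAP3d (n = 4) and 156 ± 49.2 in YAP7d, with 81.0% to 100% of its counts in the 2 phagocyte classes in every library. Spp1 came mainly from cholangiocyte-like cells in 8 libraries (72.3% to 97.8% of counts), and from monocyte-like cells in YAP3d replicate 2 (50%), a library with 1 cholangiocyte-like cell. Levels over all cells follow the mixture of cells as well as the level per cell, so the comparisons between groups were made within a class.

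**Figure D2:**
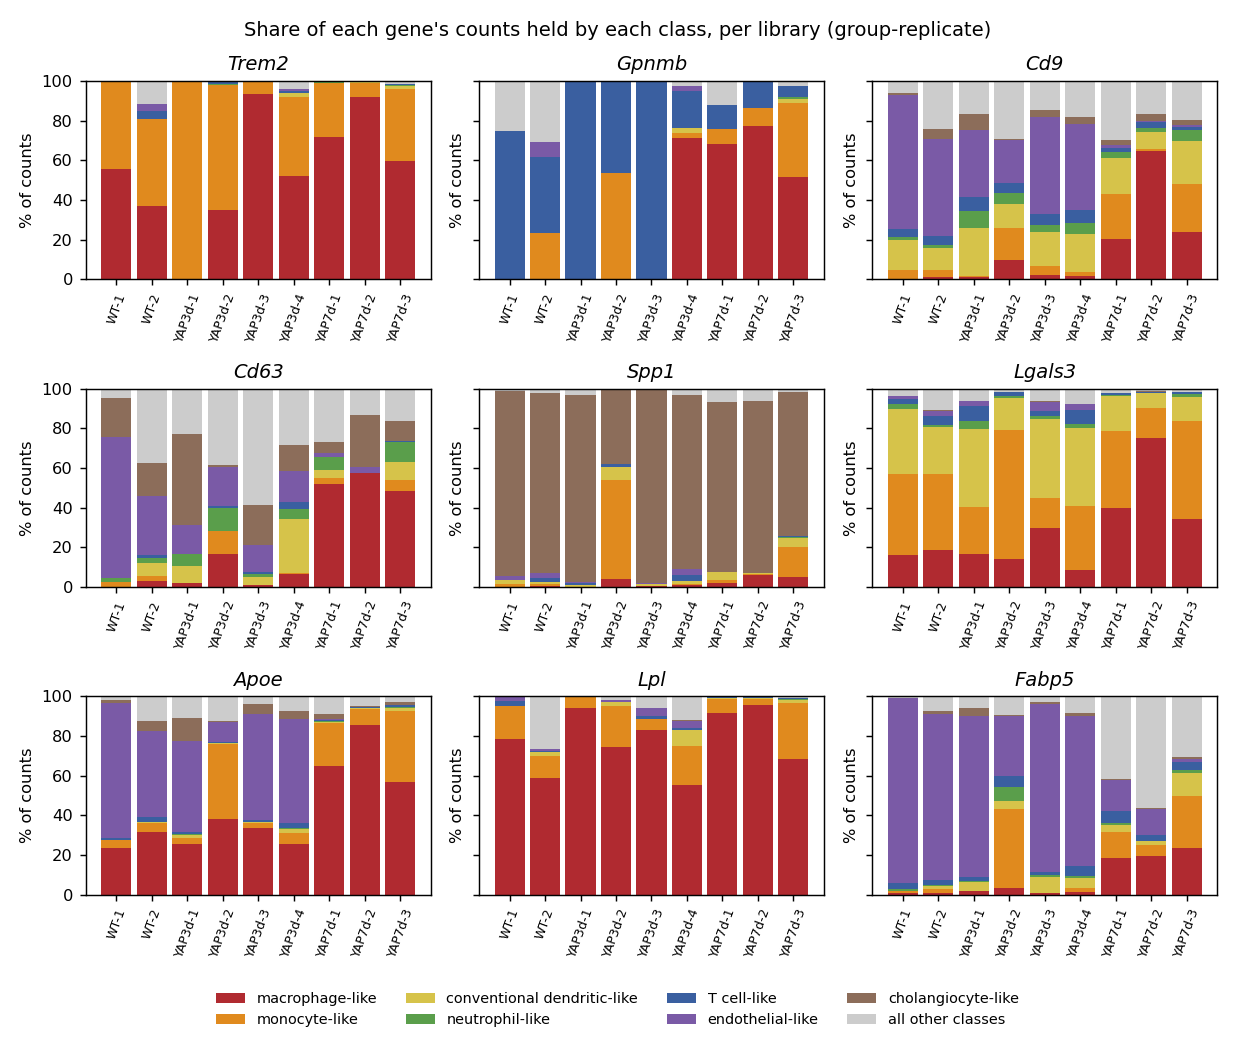
Percent of each gene's counts held by each class (colours), one bar per library, labelled group-replicate. Endothelial-like cells hold most Fabp5 counts in WT (93.5% and 83.6%), and the 2 phagocyte classes hold 86.8% to 93.9% of Apoe counts in YAP7d.

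Among macrophage-like cells, Trem2 and Lgals3 stood higher and Apoe lower in every YAP7d library than in both WT libraries, but no member passed the test across all genes. Counts were summed per library and compared with edgeR's quasi-likelihood test on all 9 libraries, with Benjamini-Hochberg adjustment over 6700 genes, and 8 of the 9 genes had enough counts to be tested, Gpnmb not being one of them. For YAP7d against WT, 0 of the 8 had an adjusted p below 0.05, where 1.49% of all genes did, 4 of the 8 had an unadjusted p below 0.05 (18.4% of all genes), and DESeq2 on the same counts called 2, Trem2 and Apoe, where it called 2.57% of all genes. The groups did not overlap for 4 of the 8 (Trem2, Lgals3, Cd9 and Apoe), near the 45.6% of all genes tested for which that was so.

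Trem2 stood at 54.5 and 55.7 CPM in the WT macrophage-like libraries, at 0, 180.1, 110.4 and 91.1 CPM in YAP3d, and at 184, 279 and 289 CPM in YAP7d. Every YAP7d library lay above every other library, and YAP3d replicate 1, with 12 macrophage-like cells, had no Trem2 count. The fit put YAP7d above WT by a log2 fold change of 2.14 with SE 0.549, at an edgeR adjusted p of 0.0555. The WT values rest on 5 and 29 counts, and without WT replicate 1 or 2 the adjusted p was 0.202 or 0.52. It was below 0.05 without YAP3d replicate 1, 2 or 4, in the fit of WT and YAP7d alone, and in 10 of 25 alternatives in all. Among these, requiring at least 20 cells drops only YAP3d replicate 1, so that fit is counted under both names.

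Lgals3 followed the same order at a level that counting supports better. It stood at 654 and 757 CPM in WT, at 913, 884, 1033 and 618 CPM in YAP3d, and at 1114, 1485 and 1539 CPM in YAP7d, again with every YAP7d library above the others. On the log2 scale YAP7d stood 0.92 above WT (SE 0.291, at an edgeR adjusted p of 0.106) and 0.73 above YAP3d (SE 0.234, at an adjusted p of 0.21).

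Apoe went the other way. It stood at 15849.7 and 24266 CPM in WT, at 13644 to 19766 CPM in YAP3d replicates 1, 3 and 4, at 4141 CPM in YAP3d replicate 2, and at 3484, 8791 and 6335 CPM in YAP7d. The YAP7d values lay below both WT values, and 1 YAP3d library lay among them. The fitted change against WT was -1.74 log2 units with SE 0.48, at an edgeR adjusted p of 0.0703. In a fit with a term for the Gm10709 split it was -0.73 (SE 0.661), while Trem2 was 1.80 (SE 0.7495) and Lgals3 0.86 (SE 0.418), each at an adjusted p of 1. In the T cell-like cells of the same libraries Apoe was 122 and 496 CPM in WT and 74.5 to 476 CPM in YAP7d, a fitted change of -0.08 log2 units (SE 0.867).

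Some markers of other cells were lower in YAP7d than in WT in this class, as Apoe was. The 14 endothelial markers summed to 948 and 1199 CPM in the WT macrophage-like libraries, 463 to 1366 CPM in YAP3d and 286 to 337 CPM in YAP7d, with 11 to 14 of them detected in WT, 8 to 14 in YAP3d and all 14 in YAP7d. The 12 hepatocyte markers summed to 599 and 884 CPM in WT and to 276 to 553 CPM in YAP7d, and 9 to 12 were detected. B cell, T cell, monocyte and stellate or mesenchymal markers were also lower in every YAP7d library than in WT. Platelet or megakaryocyte markers were higher, at 319 to 389 CPM in YAP7d against 76.3 and 210 CPM in WT. The remaining lists of other cells overlapped. In monocyte-like cells, where Apoe was not lower, endothelial markers summed to 413 and 816 CPM in WT and 211 to 256 CPM in YAP7d. The part of these cells in the Apoe result was not tested.

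Cd9 was 0 and 40.4 CPM in WT, 34.4 to 69.9 CPM in YAP3d and 67.0, 146 and 82.9 CPM in YAP7d, and the fitted change over WT, 1.63 log2 units with SE 0.52 at an edgeR adjusted p of 0.11, rests on a WT library without a count. Over 24 alternatives this change ran from -1.03 to 10.5, the lowest under a marker gate in place of clusters and the highest without WT replicate 2, which leaves WT at 0, and it was below 0 in 2 of them. Lpl stood at 675 and 623 CPM in WT, 445 to 568 CPM in YAP3d and 612, 859 and 343 CPM in YAP7d, and YAP7d libraries lay on both sides of WT (-0.17 log2 units, SE 0.309). Spp1, Cd63 and Fabp5 overlapped between the groups, with log2 fold changes of -1.17 (SE 0.81), 0.52 (SE 0.705) and 0.03 (SE 0.626), of which Cd63 ran from -1.08 to 8.97 over 23 alternatives, the highest without WT replicate 2, which leaves WT at 0. The median of the 8 log2 fold changes was 0.28, beside 0.02 over all genes tested.

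For acute induction, YAP3d against WT, 0 of the 8 genes were called by edgeR or DESeq2 in macrophage-like cells and 0 had an unadjusted p below 0.05, where 0.0% of all genes were called and 4.54% had such a p. The log2 fold changes were 0.95 for Trem2 (SE 0.552), 0.19 for Lgals3 (SE 0.277), 0.94 for Cd9 (SE 0.545) and -0.71 for Apoe (SE 0.451). Lpl was lower in value in every YAP3d library (445 to 568 CPM) than in both WT libraries (675 and 623 CPM). For YAP7d against YAP3d, 0 of the 8 were called by edgeR or DESeq2, 3 had an unadjusted p below 0.05 (Trem2, Lgals3 and Apoe), and 0.254% of all genes were called and 12% had such a p. The 2 groups did not overlap for Trem2 and Lgals3, 2 of the 8, where 11.3% of all genes were so placed. These comparisons share libraries, so their values are set side by side and not counted as separate support.

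**Figure D3:**
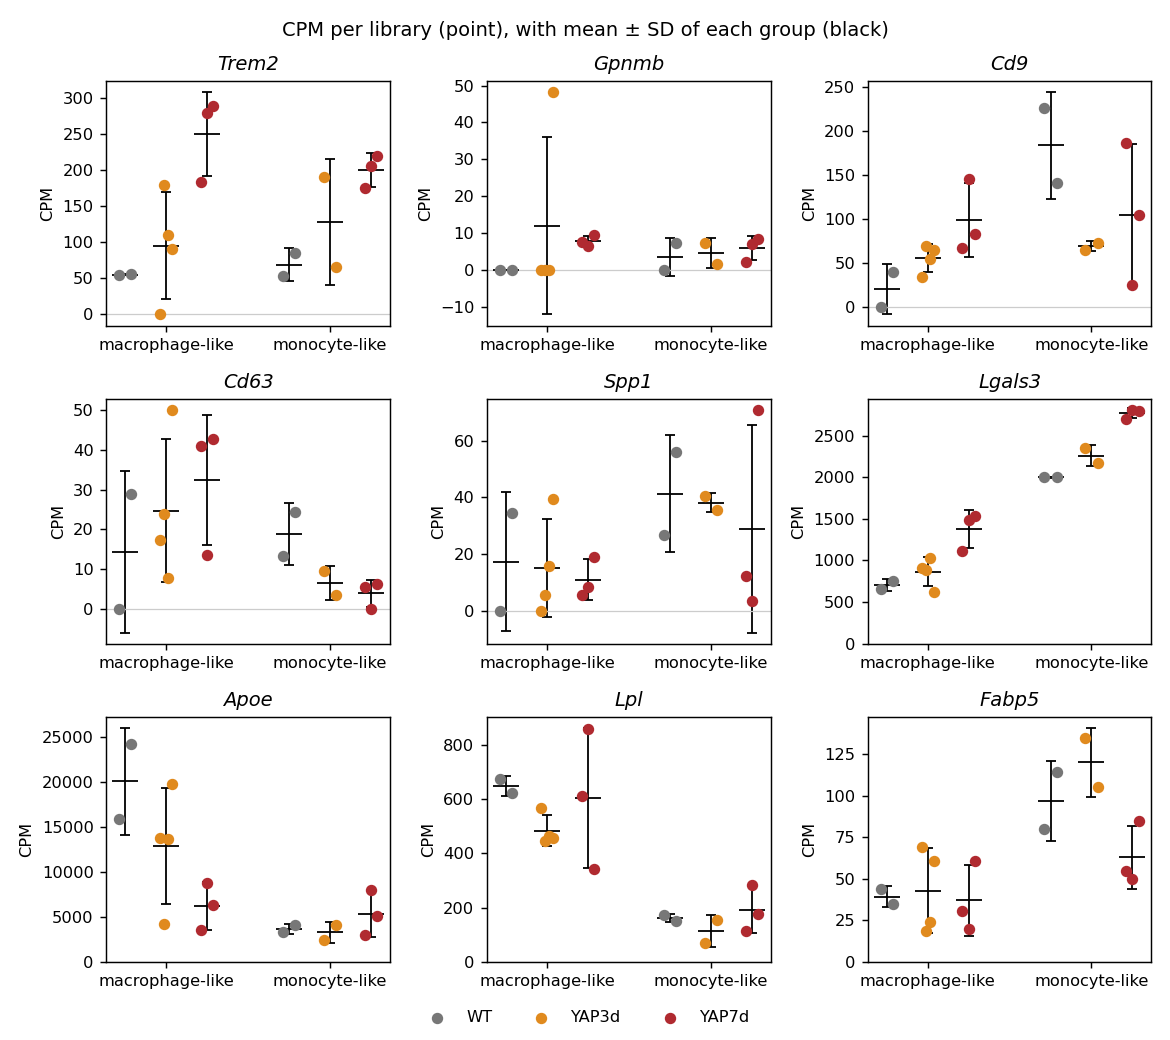
CPM of each gene in macrophage-like and monocyte-like cells, one point per library with at least 10 cells of the class, with mean ± SD of each group in black on a linear axis. In macrophage-like cells the YAP7d points of Trem2 (184 to 289 CPM) and Lgals3 (1114 to 1539 CPM) lie above all others, and those of Apoe (3484 to 8791 CPM) lie below both WT points.

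The macrophage-like class is made of 3 clusters that the groups fill differently, so the same genes were read within them, a split chosen after the values were seen. Clusters 13 and 15 were led by Kupffer cell markers and cluster 21 was not. Cluster 13 held 47 of the 67 macrophage-like cells of WT replicate 2 and none of YAP7d, cluster 15 held 93 to 147 cells of each YAP7d library, and cluster 21 held 257 of the 404 cells of YAP7d replicate 3. In the Kupffer-led clusters combined, 2 of the 7 genes tested were called for YAP7d against WT, where 1.55% of all genes were called. Apoe fell, from 15273 and 24753 CPM in WT to 2465, 6701 and 4362 CPM in YAP7d (a change of -2.20 log2 units, SE 0.477, at an edgeR adjusted p of 0.0277). Cd9 rose, from 0 and 14.6 CPM to 65.2, 164 and 97.5 CPM (edgeR adjusted p = 0.0206), and its fitted log2 fold change of 3.14 (SE 0.619) depends on a WT library at 0. T cell-like cells of the same libraries held 31.0 and 43.4 CPM of Cd9 in WT and 27.8 to 61.2 CPM in YAP7d, and B cell-like cells held 0 and 82.1 CPM in WT and 0 to 87.1 CPM in YAP7d.

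Cd9 also rose against YAP3d in the Kupffer-led clusters, by 2.31 log2 units with SE 0.428, at an edgeR adjusted p of 0.0153, where 0.51% of all genes were called. Trem2 in these clusters was 52.7 and 29.2 CPM in WT and 155, 243 and 231 CPM in YAP7d (a change of 2.55 log2 units, SE 0.674, at an edgeR adjusted p of 0.0628), and Lgals3 was 619 and 717 CPM in WT and 1147, 1580.4 and 1675 CPM in YAP7d (adjusted p = 0.0722).

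In cluster 21, which had at least 10 cells in 1 WT library, 2 YAP3d libraries and 3 YAP7d libraries, values are given without a test, since WT is 1 library. Trem2 was at 155 CPM there in WT replicate 2 (11 cells), at 218 and 254 CPM in the YAP3d libraries, and at 240, 368 and 321 CPM in YAP7d. Cd9 was at 136 CPM in that WT library, which alone represents WT, at 193 and 196 CPM in the YAP3d libraries, and at 70.4 to 100.4 CPM in YAP7d. Cluster 21 also held the Gpnmb of YAP3d replicate 4, at 196 CPM over 14 cells.

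**Figure D4:**
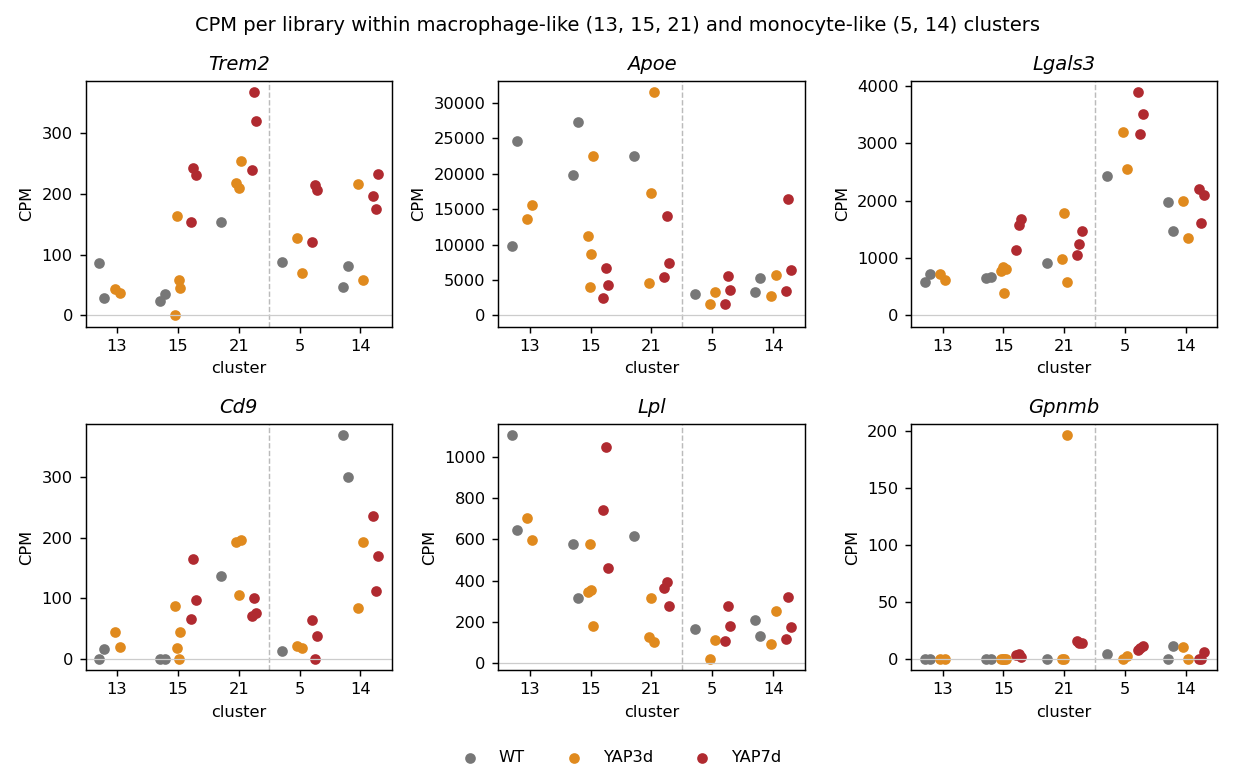
CPM per library of 6 genes within each macrophage-like cluster (13, 15 and 21) and monocyte-like cluster (5 and 14), one point per library with at least 5 cells of the cluster, on a linear axis. In cluster 15 the YAP7d points of Trem2, Lgals3 and Cd9 lie above both WT points and those of Apoe (2465 to 6701 CPM) lie below them.

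The depth of a cell sets how often 1 of its UMIs is from a given gene, so each cell was thinned to 1000 UMIs before cells were counted. This left out 5 of 98 macrophage-like cells in WT, 5 of 173 in YAP3d and 0 in YAP7d. Lgals3 was then seen in 34.6% and 43.3% of WT cells, in 28% to 49.0% of YAP3d cells and in 61.9%, 67.5% and 70.05% of YAP7d cells, with exact 95% intervals of 53.5% to 69.8% for the lowest YAP7d library and 34.8% to 63.4% for the highest YAP3d library. T cell-like cells had a median of 4308.5 UMIs in WT and 5596 in YAP7d before thinning, against 5359.5 and 17819.5 in macrophage-like cells. They showed Lgals3 in 0.99% and 3.98% of cells in WT, 1.18% to 8.62% in YAP3d and 8.89%, 13.8% and 17.7% in YAP7d. There too every YAP7d library lay above the others. In macrophage-like cells the difference between YAP7d and YAP3d was 27.2 points, with an exact two-sided permutation p of 0.0286. That p is the smallest that 3 against 4 libraries can give and is not adjusted over the members. Against WT the difference was 27.5 points with an exact permutation p of 0.1, the smallest that 3 against 2 libraries can give.

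Trem2 was seen in 0 of 26 thinned cells of WT replicate 1, which allows a share of up to 11.5%, in 5.97% of cells in WT replicate 2 (exact 95% interval 1.65% to 14.6%), in 0%, 11.8%, 12% and 3.66% in YAP3d, and in 10.9%, 23.9% and 22% in YAP7d, so at equal UMIs YAP3d and YAP7d overlapped. In T cell-like cells the share was 0% to 1.73%. The difference of 16.0 points between YAP7d and WT had an exact permutation p of 0.2. Without thinning, the shares of macrophage-like cells with Trem2 were 12.9% and 25.4% in WT and 68.7% to 90.3% in YAP7d. Spp1 and Gpnmb were each seen in under 5% of thinned macrophage-like cells of any library, 4.48% at most for Spp1 and 2.44% at most for Gpnmb, against 3.98% and 2.59% at most in T cell-like cells.

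Most YAP7d macrophage-like cells had a Trem2 UMI, and fewer had Cd9, Spp1 or Gpnmb. At full depth, 613 of 760 YAP7d macrophage-like cells had a Trem2 UMI, 411 had Cd9, 364 had both, 57 had Trem2 with Gpnmb, and 135 had Trem2 with Spp1. YAP7d replicate 3, with 404 of the 760 cells, held 40 of those 57 and 115 of those 135. Of the 411 cells with Cd9, 88.6% had Trem2, beside 80.7% of all 760. At least 3 of Trem2, Cd9, Gpnmb and Spp1 were seen in 112 of the 760 cells (14.7%). By library this was 10 of 147, 12 of 209 and 90 of 404 cells in YAP7d replicates 1 to 3, of which replicate 3 was the deepest. At least 3 were seen in 4 of 173 YAP3d cells (2.31%) and in 1 of 379 YAP7d T cell-like cells. In WT this was 0 of 31 and 0 of 67 cells, which allows up to 3.06% with the 98 cells of both libraries pooled. Depth per cell differed between these groups, so the shares were not compared.

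In monocyte-like cells Trem2 and Lgals3 were again higher in value in every YAP7d library than in WT, and Apoe was not lower. For YAP7d against WT, edgeR and DESeq2 each called 0 of the 7 genes tested, edgeR called 0.0974% of all 6163 genes, and 2 of the 7 had an unadjusted p below 0.05 (Trem2 and Lgals3), as 7.53% of all genes did. The same 2 did not overlap between the groups, as 28.7% of all genes did not. Gpnmb and Cd63 had too few counts for the test.

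Trem2 stood at 53.3 and 85 CPM in WT monocyte-like cells, at 190.3 and 66.2 CPM in YAP3d replicates 2 and 4, and at 175, 207 and 220.0 CPM in YAP7d (YAP7d over WT by 1.41 log2 units, SE 0.433, at an edgeR adjusted p of 0.355). Over 20 alternatives this change ran from 0.04, with the term for the Gm10709 split, to 2.71, with cells thinned. Lgals3 was 1997 and 2001 CPM in WT, 2351 and 2169 CPM in YAP3d and 2701, 2806 and 2799.7 CPM in YAP7d (a change of 0.49 log2 units, SE 0.219, at an adjusted p of 0.638). Apoe was 3289 and 4041 CPM in WT and 2943, 7952 and 5034 CPM in YAP7d, which lie on both sides of the WT values (0.55 log2 units, SE 0.382).

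Fabp5 and Cd9 were lower in value in YAP7d, at 49.9 to 84.7 against 79.9 and 114 CPM for Fabp5 and at 24.9 to 186 against 141 and 226 CPM for Cd9, and the groups overlapped for both. In WT replicate 2 Cd9 stood at 300.5 CPM in cluster 14 (31 cells) and 13.1 CPM in cluster 5 (29 cells), and in YAP7d at 111 to 236 CPM in cluster 14 and 0 to 64.6 CPM in cluster 5. For YAP3d against WT and for YAP7d against YAP3d, edgeR and DESeq2 called 0 of the 7, edgeR called 0.0% of all genes in both, and 1 gene in each had an unadjusted p below 0.05, Cd9 in the former and Fabp5 in the latter, beside 3.39% and 4.11% of all genes.

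The difference between the 2 classes was itself tested for YAP7d against WT, over the 7 libraries with at least 10 cells of both. Apoe differed by -2.32 log2 units, macrophage-like minus monocyte-like (SE 0.413), with an edgeR adjusted p of 0.0688 over 7262 genes, of which 0.0275% were called. Cd63 differed by 2.70 (SE 0.813, adjusted p = 0.297), Cd9 by 1.98 (SE 0.858, adjusted p = 0.469) and Trem2 by 0.74 (SE 0.41, adjusted p = 0.583). Of the 8 genes fitted, 0 passed, and 3 had an unadjusted p below 0.05 (Apoe, Cd63 and Cd9), beside 9.78% of all genes. When macrophage-like and monocyte-like cells were pooled, also an addition made after the values were seen, edgeR called 0 of the members for YAP7d against WT, where 0.583% of all genes were called.

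**Figure D5:**
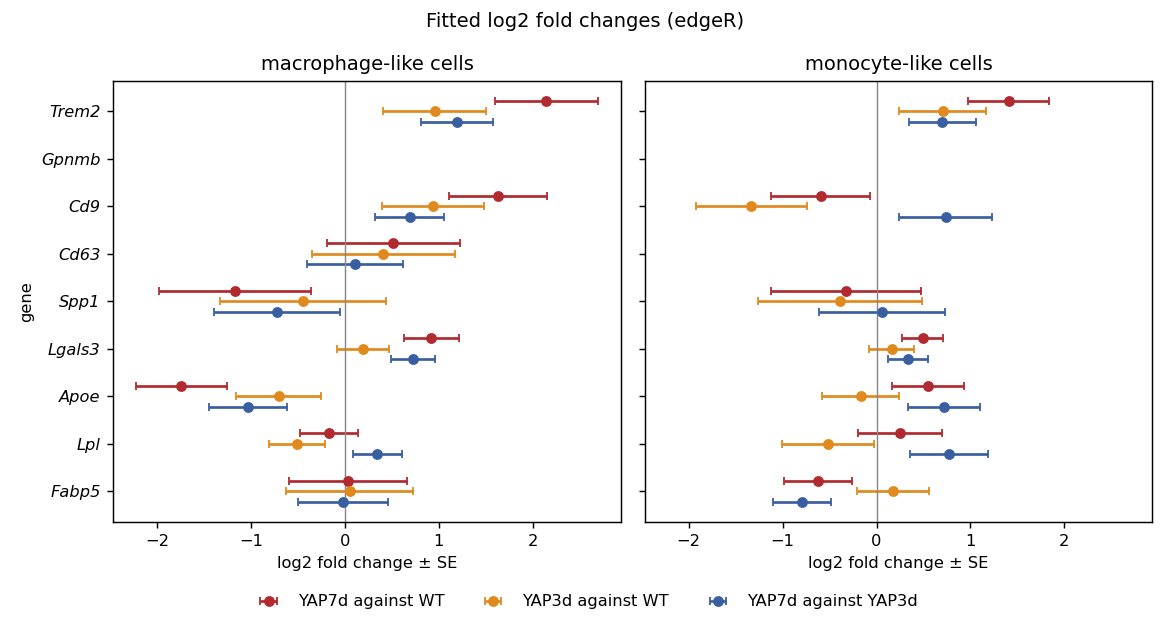
Fitted log2 fold changes (points) with standard errors (bars) for 3 comparisons in macrophage-like and monocyte-like cells, from edgeR fits; genes without a point had too few counts. Trem2 (2.14 and 1.41) and Lgals3 (0.92 and 0.49) lie above 0 in both classes for YAP7d against WT, while Apoe is at -1.74 in macrophage-like and 0.55 in monocyte-like cells.

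Lgals3 was also higher in value after 7 days in 3 lymphocyte classes with little of it and in conventional dendritic-like cells, which hold more. For YAP7d against WT its log2 fold change was 2.07 in T cell-like (SE 0.631), 1.87 in B cell-like (SE 0.637), 1.48 in NK cell-like (SE 0.494) and 1.24 in conventional dendritic-like cells (SE 0.392), with edgeR adjusted p from 0.0766 to 0.632, and edgeR called 0 of the 3 to 5 members tested per class, Lgals3 alone having an unadjusted p below 0.05 in each. The shares of all genes called were 0.0% in T cell-like, 0.0448% in B cell-like, 7.15% in NK cell-like and 0.0% in conventional dendritic-like cells, and 8.59%, 4.34%, 22.9% and 8.32% of all genes had an unadjusted p below 0.05.

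In NK cell-like cells Lgals3 was 0 to 119.7 CPM in YAP3d and 127, 149.8 and 274 CPM in YAP7d, and it rose for YAP7d against YAP3d (a change of 1.43 log2 units, SE 0.399, at an edgeR adjusted p of 0.0231), in a comparison that called 13.8% of all genes. It was the only member called in these 4 classes: for YAP7d against YAP3d edgeR called 0 of the members in T cell-like, B cell-like and conventional dendritic-like cells (0.76%, 0.0% and 0.0539% of all genes), and for YAP3d against WT 0 in each (0.0% of all genes). T cell-like Lgals3 was 19.9 and 57.5 CPM in WT and 87.5 to 266 CPM in YAP7d. Whether free RNA from phagocytes enters these values was not tested.

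Genes whose levels over the 13 named classes were most like each member differed between members. Here levels were of counts pooled over all libraries, so 88.1% of macrophage-like UMIs came from YAP7d and 1.40% of endothelial-like UMIs did, and r mixes class with group. By Pearson's r of log2(CPM + 1) over those classes, among 6381 genes with at least 50 CPM in a class, Trem2 was nearest to Cd300e, Fcgr4 and Adgre4 (r = 0.935, 0.934 and 0.931) and Lgals3 to Ms4a6c, Arpc2 and Sirpb1c (0.939, 0.935 and 0.924). Lpl was nearest to Ccl2, Axl and Lrp1 (0.945, 0.943 and 0.93), all highest in macrophage-like cells. Gpnmb, with the lowest counts, was nearest to Ms4a6d (0.809), Ifi27l2a (0.788) and 2310011J03Rik (0.776).

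Spp1 and Fabp5 had neighbours highest in the class that led them. Spp1 was nearest to Dcdc2a, Prss8 and Shroom3 (0.974, 0.974 and 0.973), all highest in cholangiocyte-like cells, and Fabp5 to Ndrg1, Vamp5 and Rab13 (0.935, 0.922 and 0.911), all highest in endothelial-like cells. Cd9 and Cd63 were each other's nearest gene (0.908), Cd9 then having Midn and Klf10 (0.902 and 0.877) and Cd63 having Klf10 and Wsb1 (0.843 for both), all highest in basophil or mast-like cells. The nearest to Apoe were Cstb, Cfb and Bri3 (0.882, 0.87 and 0.842), highest in macrophage-like, cholangiocyte-like and hepatocyte-like cells. The points share libraries, so r is a description here.

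Other gene lists are read against all genes tested for YAP7d against WT, of which 1.49% were called and 18.4% had an unadjusted p below 0.05 in macrophage-like cells, and 0.0974% and 7.53% in monocyte-like cells. With a term for the Gm10709 split edgeR called 0 of the 6700 genes in macrophage-like cells. Each call named below for this comparison is therefore absent in that fit. Around TREM2, none of the signalling genes tested passed the test. Of 10 genes (the adaptors Tyrobp and Hcst, downstream Syk and Plcg2, the shedding proteases Adam10 and Adam17 and others), 9 were tested in macrophage-like cells for YAP7d against WT and edgeR called 0 (2 with an unadjusted p below 0.05, both lower), and the median log2 fold change was -0.64. Tyrobp stood at 3664 ± 298 CPM in WT (n = 2) and 3010.2 ± 175 CPM in YAP7d (n = 3), a fitted change of -0.33 log2 units (SE 0.265), and Grb2 at 180.04 ± 38.9 and 197 ± 42.3 CPM. In monocyte-like cells edgeR called 0 of 10, with 0 at an unadjusted p below 0.05.

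The lysosomal and lipid-storage companions of the state were mixed. Of 24 genes such as cathepsins, Lipa, Plin2 and Cd36, 23 were tested in macrophage-like cells for YAP7d against WT, and 1 fell: Creg1, a lysosomal glycoprotein, from 910.5 ± 101 CPM in WT (n = 2) to 413 ± 81.7 CPM in YAP7d (n = 3, a change of -1.20 log2 units, SE 0.293, at an edgeR adjusted p of 0.0486). Of these 23, 6 had an unadjusted p below 0.05, 3 higher and 3 lower, 11 log2 fold changes were above 0, and the median was -0.11. In monocyte-like cells edgeR called 0 of 21 (2 with an unadjusted p below 0.05), and the genes of highest level were Ctss, at 3233 ± 1189 CPM in WT and 3067 ± 281 CPM in YAP7d, and Vim, at 1389 ± 144 and 1779 ± 372 CPM.

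Among 20 genes of lipid transport and storage, 14 were tested in macrophage-like cells for YAP7d against WT, 2 fell and 0 rose, 7 had an unadjusted p below 0.05 (6 of them lower), and the median log2 fold change was -0.52. Apoc1, an apolipoprotein encoded beside Apoe, fell from 3892 ± 97.4 CPM (n = 2) to 905 ± 553 CPM (n = 3, a change of -2.18 log2 units, SE 0.52, at an edgeR adjusted p of 0.0484), passing through 2467 ± 1408 CPM in YAP3d (n = 4). In monocyte-like cells its log2 fold change was 1.27 (SE 0.571, adjusted p = 0.643). Gpihbp1, the capillary protein that holds LPL on endothelium, fell from 94.8 ± 26.3 to 17.6 ± 6.61 CPM (a change of -2.59 log2 units, SE 0.529, at an edgeR adjusted p of 0.0221); it is an endothelial gene, it was also lower in value in B, NK and T cell-like cells (log2 fold changes -3.45, -3.36 and -2.53), and the part of the few endothelial-like cells in the YAP7d libraries in this value was not tested. In monocyte-like cells edgeR called 0 of 16 (4 with an unadjusted p below 0.05).

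Of 9 receptors or binding partners of the secreted members, such as the osteopontin receptor Cd44, edgeR called 0 of 6 tested in macrophage-like cells (0 with an unadjusted p below 0.05) and 0 of 6 in monocyte-like cells (1). Cd44 stood at 391 ± 93.8 CPM in WT and 276 ± 31.7 CPM in YAP7d macrophage-like cells, and Lgals3bp at 369 ± 168 and 258 ± 27.4 CPM. Of 6 transcription factors tied to the lysosomal programme, 0 of 5 were called in macrophage-like cells (1 with an unadjusted p below 0.05) and 0 of 3 in monocyte-like cells (0), and Tfec was at 63.4 ± 2.73 CPM in WT and 41.5 ± 11.1 CPM in YAP7d macrophage-like cells.

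The state of the macrophage-like cells was also read with 2 further lists. Of 14 Kupffer identity genes, 4 of which also served as macrophage markers, 1 fell and 8 had an unadjusted p below 0.05, all lower, for YAP7d against WT, where 1.49% of all genes were called. The gene that fell was Hmox1, which breaks down heme, from 1166 ± 16.6 CPM in WT (n = 2) to 381 ± 85.4 CPM in YAP7d (n = 3, a change of -1.66 log2 units, SE 0.291, at an edgeR adjusted p of 0.00888). Of 15 proliferation genes, 4 rose and 13 had an unadjusted p below 0.05, all higher: Tk1, Stmn1, Birc5 and Tyms, with Birc5 at 11.2 ± 0.452 CPM in WT and 161 ± 34.3 CPM in YAP7d (a change of 3.78 log2 units, SE 0.851, at an edgeR adjusted p of 0.0357). None of these calls was made in the fit with a term for the Gm10709 split. In monocyte-like cells edgeR called 0 of 10 Kupffer identity genes (2 with an unadjusted p below 0.05) and 0 of 5 proliferation genes (3).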

How the data were processed

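The deposited table held whole-number UMI counts per gene and cell from the authors, with Cell Ranger, Seurat 2 and mm10 named in the submitters' processing notes, and the methods give 10x 3′ chemistry with default settings. UMI counts are of the 3′ end, so CPM compares a gene between cells and not genes by length. Every column was mapped to a library, and 0 were left out. Libraries held 293 to 2554 cells and 1314878 to 25056881 UMIs.

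Cells with at least 200 genes were normalised to 10000, reduced to 30 principal components of 2419 variable genes and clustered (scanpy 1.11.5, Leiden resolution 1, 15 neighbours). Clusters were named from 163 markers. A class needed 3 markers raised, and 22 cells stayed unnamed. Counts were summed per library and class (at least 10 cells), filtered with filterByExpr, scaled by TMM and tested with edgeR 4.0.16 glmQLFTest, Benjamini-Hochberg over all genes tested, and DESeq2 1.42.0 as an alternative. On simulated counts for YAP7d against WT in macrophage-like cells (6700 genes, 200 changed by 2 log2 units), edgeR recovered 58% with 9.38% of calls false. Shares of cells were compared with exact permutation tests (scipy 1.17.1). Mean CPM levels and tests carry a filter of 10 cells and no pseudocount, and values on fewer cells (clusters, basophil or mast-like cells, Yap1) are given as such. Named genes were the 9 members; of each other list, those called (at most 5 by smallest adjusted p) or, with none, the 2 of highest level; and the 3 nearest genes by correlation. The members and lists were chosen with earlier results of these data known. Nothing in the labels ties a replicate number to a litter or day, and each library is 1 mouse.

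Alternatives were other tools, scalings, filters, clusterings and cell sets, left-out libraries and a replicate block. With counts of Gm10709 above 100 CPM over all cells a library was put on the high side of the split. The list-wide adjustment of the share tests was not printed. A test of the difference from endothelial-like cells was not run, since no YAP7d library had 10 such cells. Promoter entries were matched by symbol for 7 of the 9 members.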

Additional observations from a re-analysis of the deposited data

Results flagged for a closer look

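Of 9 sets of 4 YAP3d macrophage-like libraries, 1 for each gene, 2 held a library set far apart from the other 3 by Dixon's test, which chance does in about 1 set in 20. Gpnmb in YAP3d replicate 4 stood at 48.2 CPM, with the other 3 libraries at 0. With tied values at 0 the test's ratio is fixed at 1, and a count of 0 in YAP3d replicate 1 allows up to 51.7 CPM, so that library is not shown to differ from replicate 4. The 27 Gpnmb counts of replicate 4 came from 3 of 82 cells, each of which also had a Trem2 UMI. Lpl in YAP3d replicate 1 stood at 568 CPM, with the others between 445 and 465 CPM, and that library had 33 Lpl counts over 12 cells.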

How the results depend on the processing

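The number of members called in macrophage-like cells for YAP7d against WT, 0 as reported, depended on the setting, and the cause was not tested. It was 2 with DESeq2 (Trem2 and Apoe, with 2.57% of all genes), 4 with no filter on low counts (Trem2, Cd9, Lgals3 and Apoe, with 3.37%), 3 with only the 2 groups compared (Trem2, Lgals3 and Apoe, with 5.80%), and 1 (Trem2, with 0.626%, 1.07% and 0.682% in turn) with stricter cell filters (500 genes or more, with mitochondrial counts of 10% or less), at resolution 0.5, or with at least 20 cells a library. It was 2 (Cd9 and Apoe, with 1.55%) in the Kupffer-led clusters. Leaving out 1 library gave 0 to 3: 1 without YAP3d replicate 1 (Trem2, with 0.682%), 3 without YAP3d replicate 2 (Trem2, Lgals3 and Apoe, with 7.65%) and 2 without YAP3d replicate 4 (Trem2 and Apoe, with 4.67%). The fit without YAP3d replicate 1 is the same as that with at least 20 cells a library. For YAP7d against YAP3d it was 2 with no filter (Trem2 and Apoe, with 1.55%), 1 in the Kupffer-led clusters (Cd9, with 0.51%), and 0 to 2 with 1 library left out, 2 being without YAP3d replicate 2 (Trem2 and Apoe, with 6.68%). In monocyte-like cells it was 1 (Trem2, with 1.08%) for YAP7d against WT with no filter. The subsets by cluster and the pooling of both classes were chosen after seeing the data.

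With the replicate block, 3 members were called in macrophage-like cells for YAP7d against WT (Trem2, Cd9 and Apoe, with 4.78% of all genes) and 1 in monocyte-like cells for YAP7d against YAP3d (Apoe, with 0.114%). Same-numbered libraries correlated at -0.165 to 0.089 in their deviations from the group means, and differently numbered ones at -0.31 to 0.31. In a group of 2 libraries these deviations mirror each other, so the values cannot show whether a number marks a shared batch or litter.

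Over 25 alternatives, the YAP7d against WT change of Trem2 in macrophage-like cells ran from 0.98 to 2.55 log2 units (adjusted p from 4.8e-05 to 1), with 10 calls. That of Apoe ran from -2.20 to -0.73, with 7 calls, and that of Lgals3 from 0.45 to 1.14, with 3 calls. None of these changed sign. Other log2 changes for YAP7d against WT in macrophage-like cells did. Spp1 was 1.63 with a term for the Gm10709 split and -2.02 to 7.51 with 1 library left out, the highest being without WT replicate 2, which leaves WT at 0. Cd9, 10.5 without WT replicate 2, was -1.03 under a marker gate and -0.76 in the cluster not led by Kupffer markers, where WT is 1 library. Cd63, 8.97 without WT replicate 2, was -0.063 at resolution 0.5, -1.08 under the gate and -0.96 in that cluster. Fabp5 was -0.047 with DESeq2, -0.71 with the block, -0.46 at resolution 0.5, -2.23 under the gate, -1.44 in the Kupffer-led clusters, -0.53 with both classes pooled, and -0.66 to 0.35 with 1 library left out. Lpl was 0.011 in the Kupffer-led clusters, 0.23 with both classes pooled, and -0.47 to 0.085 with 1 library left out. For YAP3d against WT, Lgals3 was -0.31 in the cluster not led by Kupffer markers, and Cd9 was -0.056 at resolution 0.5, -1.02 under the gate and -0.31 with both classes pooled. For YAP7d against YAP3d, Cd9 was -0.0014 under the gate and -1.19 in the cluster not led by Kupffer markers. In monocyte-like cells Fabp5 was 0.50 under the gate for YAP7d against WT.

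Shares of macrophage-like cells depended on depth. For YAP7d minus YAP3d at 500 UMIs, Trem2 differed by 6.92 points and Lgals3 by 28.1 points, and without thinning Trem2 differed by 53.1, Cd9 by 33.5, Lgals3 by 30.7 and Apoe by 0.796 points. With 1 library left out, Lgals3 ran from 23.4 to 30.4 points, where 3 against 3 or 2 against 4 libraries cannot reach the threshold. In monocyte-like cells Lgals3 for YAP7d minus WT ran from -1.49 points, without WT replicate 2, to 16.8. With 12 macrophage-like cells in the smallest library and 5 Trem2 counts in WT replicate 1, counting limits these values.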

Other observations

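A cluster of 22 cells was left without a name, 15 of them in WT replicate 2, with macrophage the nearest class. In it 10 of the 12 macrophage markers were raised, but none was among its top 10 genes, led by Prg4 and Alox15. In WT replicate 2 these cells had 942 CPM of Cd9 against 40.4 CPM in the 67 macrophage-like cells of the same library, 609 CPM of Fabp5 against 34.6 CPM, 97.3 CPM of Cd63 against 28.8 CPM, and 20884 CPM of Apoe against 24266 CPM. Trem2 was at 25.6 CPM against 55.7 CPM, and no Gpnmb count was found. With 15 cells in 1 library these values have no replicate.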
